A study of Mus musculus with 54 samples.

Results

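The genes described here are 10 factors of the naive pluripotency network of mouse embryonic stem cells (ESCs): Esrrb, Nr0b1, Nr5a2, Klf2, Klf4, Klf5, Tfcp2l1, Tbx3, Prdm14 and Tcl1. They were chosen by name, as every probe set whose symbol in the platform annotation is that gene alone, and a gene was read from whichever of its probe sets was brightest on average over the 54 arrays. This gave 20 probe sets of 30939 in the table and 10 genes of 14104. The cells were murine CGR8 ESCs, a male line of strain 129. They were used as wild-type cells (WT), as cells stably transfected with a plasmid for a scrambled shRNA (SCR), and as cells with a plasmid for an shRNA against Mageb16 (KD), a gene of the melanoma antigen family. SCR and KD cells were both selected with puromycin, and each is a single polyclonal population. Each line was taken undifferentiated (day 0) and as embryoid bodies (EBs) grown from hanging drops and collected at day 2, day 4, day 12, day 15 and day 22, and every one of these 18 groups was read on 3 Affymetrix Mouse 430 2.0 arrays. The labels number the arrays but do not say whether they are separate cultures, so the errors and p values measure the spread between arrays, which may be technical.

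Naive pluripotency is the state of the preimplantation epiblast, which mouse ESCs keep in culture with leukaemia inhibitory factor (LIF). A core of Pou5f1, Sox2 and Nanog is shared with later pluripotent cells, and a wider circle of factors, the 10 genes among them, marks and supports the naive state. LIF acts through JAK and STAT3 on Klf4 and Tfcp2l1 and through PI3K and Akt on Tbx3, the Wnt pathway relieves repression of Esrrb by TCF7L1, and FGF and ERK signalling drives cells out of the naive state. When LIF is withdrawn the naive factors are silenced while the cells pass through a formative, epiblast-like phase. Several of the genes are also used in later tissues, such as Klf4 and Klf5 in epithelia, Nr5a2 in liver and gut, and Tbx3 in heart and liver.

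Values are log2 expression values after RMA (robust multi-array average), in which 1 unit is a 2-fold difference. Mageb16, the targeted gene, was measured by 1 probe set. In SCR arrays it lay between 8.87 and 10.15 log2 over all days and in KD arrays between 3.49 and 7.43, and the difference of KD from SCR was -3.01 log2 before differentiation (SE 0.168, limma adjusted p = 3.02e-17). In day 4 EBs the KD arrays were under the lower quartile of all values on the array, so the size of that difference is not exact. In WT EBs Mageb16 itself fell to 7.04 ± 0.104 (SD, n = 3 arrays) at day 4, against 9.51 ± 0.226 in SCR EBs. The day 0 cells of the 3 lines had group means from 11.98 to 12.08 log2 for Pou5f1, 11.57 to 11.60 for Nanog, 11.76 to 11.91 for Sox2 and 12.07 to 12.16 for Zfp42, which are defining ESC genes. Arrays of a group correlated at 0.986 to 0.997 over all probe sets. In 17 groups replicate 3 lay between the other two arrays at 41.6% to 59.3% of probe sets (32.8% in KD day 22 EBs). Among the 10 genes it lay between them for 5 to 10 in these groups, with 10 in SCR EBs of day 2 and day 22, and for 3 in KD day 22 EBs. Were it not independent of them, the SDs and p values given here would be too small.

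Of the 10 genes, 7 have an entry in the RefSeq table of start sites used here (build GRCm38.p6), with 9 windows of 250 bases upstream of a start, and Klf5, Tbx3 and Prdm14 have none. Windows of Esrrb and Nr0b1 are shown because these are the pair of genes with the most similar profiles. Esrrb has another window, chr12:86421394-86421643, which had no motif match and is not shown. Those of Klf2 and Klf4 are shown because they are paralogues of one family that differed in opposite directions between the lines at day 4. Capitals mark matches to the motifs searched on both strands: an octamer (ATGCAAAT), a nuclear receptor element (AAGGTCA, with TCAAGGTCA as its extended form, which contains it), a STAT element (TTCNNNGAA), a GC box (GGGCGG) and a TCF element (CTTTGA).
Esrrb, chr12:86360867-86361116, plus strand: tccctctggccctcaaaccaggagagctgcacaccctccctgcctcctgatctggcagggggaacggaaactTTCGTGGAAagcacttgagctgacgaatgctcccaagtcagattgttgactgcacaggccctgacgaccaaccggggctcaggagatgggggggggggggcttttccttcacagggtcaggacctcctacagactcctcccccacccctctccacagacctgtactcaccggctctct
Nr0b1, chrX:86191525-86191774, plus strand: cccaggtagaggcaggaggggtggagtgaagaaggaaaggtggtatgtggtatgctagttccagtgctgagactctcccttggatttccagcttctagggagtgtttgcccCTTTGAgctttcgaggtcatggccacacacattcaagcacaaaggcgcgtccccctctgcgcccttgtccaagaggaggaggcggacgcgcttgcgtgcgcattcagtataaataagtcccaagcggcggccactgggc
Klf2, chr8:72318812-72319061, plus strand: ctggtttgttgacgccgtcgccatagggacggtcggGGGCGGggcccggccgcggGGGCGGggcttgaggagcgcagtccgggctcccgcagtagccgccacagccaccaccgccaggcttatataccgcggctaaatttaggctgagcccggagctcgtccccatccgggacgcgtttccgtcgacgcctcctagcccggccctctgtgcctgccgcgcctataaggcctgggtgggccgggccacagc
Klf4, chr4:55532476-55532725, minus strand: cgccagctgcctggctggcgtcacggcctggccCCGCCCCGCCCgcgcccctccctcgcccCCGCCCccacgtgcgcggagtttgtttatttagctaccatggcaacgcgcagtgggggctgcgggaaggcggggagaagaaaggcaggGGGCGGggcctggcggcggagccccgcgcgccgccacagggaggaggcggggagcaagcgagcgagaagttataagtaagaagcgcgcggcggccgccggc
Each window ends at the base before an annotated start of its gene and is written 5′ to 3′ on the gene's strand. The GC box was found in 3 of the 9 windows, 1 each of Klf2, Klf4 and Tcl1, and in 32.7% of all 32851 windows. The STAT element was found in 1 Esrrb window (7.02% of all windows) and the TCF element in that of Nr0b1 (13.8%). The octamer (1.6% of all), AAGGTCA (4.08%) and TCAAGGTCA (0.387%) were found in none of the 9 windows. The letters of Esrrb and Nr0b1 thus share no motif match, and those of Klf2 and Klf4 share the GC box.

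In undifferentiated cells no group means of the 10 genes differed by 2-fold between the 3 lines. The orphan nuclear receptor Esrrb was at 10.43, 10.36 and 10.37 log2 on the WT arrays, 10.71, 10.41 and 10.81 on the SCR arrays and 10.34, 10.27 and 10.36 on the KD arrays. Nr0b1 (Dax1), a nuclear receptor without a DNA-binding domain of the usual kind that acts as a corepressor, had group means of 11.72 in WT, 11.81 in SCR and 11.67 in KD cells. Prdm14, a PR-domain protein that represses FGF receptor and DNA methyltransferase genes, was at 7.42, 7.12 and 7.56. The array ranges overlapped for 6 of the 10 genes between KD and SCR cells, for 8 between KD and WT and for 8 between SCR and WT. Overlap was not counted over all probe sets, so these counts describe the arrays and show nothing particular to the 10 genes. A gene was called throughout where the adjusted p was under 0.05 and the difference was 2-fold or more. By this rule 0 of the 10 genes differed between KD and SCR, 0 between KD and WT and 0 between SCR and WT, where 0.928%, 1.05% and 0.627% of all probe sets did. The largest difference between KD and SCR was that of Tcl1, a coactivator of the kinase Akt, at -0.71 log2 (SE 0.185, limma adjusted p = 0.00575, 95% interval -1.09 to -0.34). Tcl1 is the 1 gene that passed on adjusted p alone there, where 4408 of all 30939 probe sets had an adjusted p under 0.05. The largest between any lines was that of Tbx3 in KD against WT cells, at -0.78 (SE 0.188, limma adjusted p = 0.00278, 95% interval -1.16 to -0.40), with every KD array (9.61 to 9.90) below every WT array (10.34 to 10.84). For the other 9 genes between KD and SCR the intervals reached from -0.79 to 0.88, so that differences of that size cannot be told from none.

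**Figure D1:**
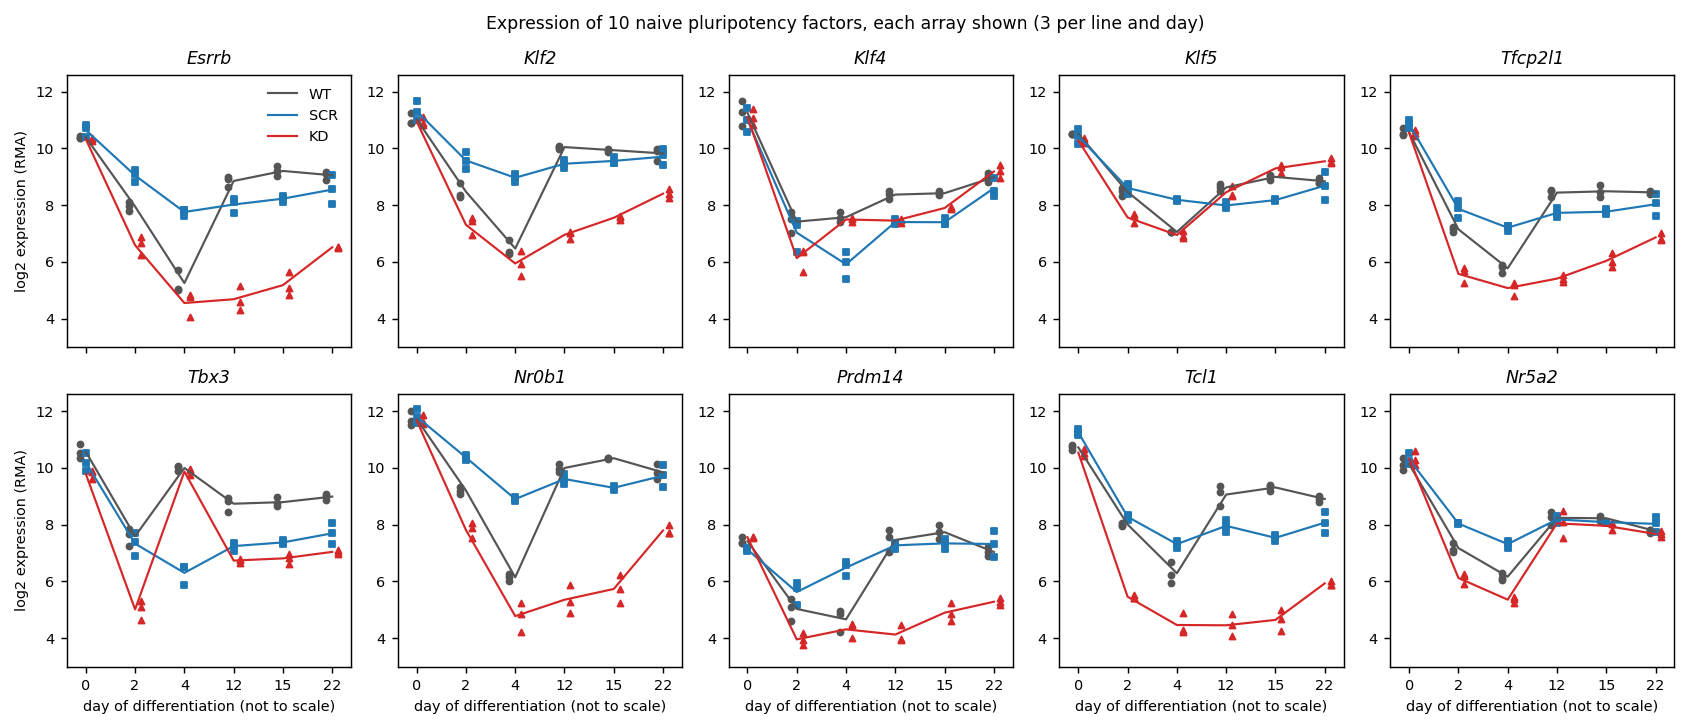
Log2 expression (y axis, RMA) of the 10 genes against the day of differentiation (x axis, days evenly spaced and not to scale) in WT (grey circles), SCR (blue squares) and KD (red triangles) cells. Each point is 1 array, 3 per line and day, and lines join the group means. No gene differs by 2-fold between lines at day 0. Esrrb, Klf2, Tfcp2l1, Nr0b1, Prdm14 and Tcl1 are lower in KD than in SCR EBs by 2-fold or more on each day from day 2 on.

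All 10 genes fell between day 0 and day 2 in each line. They were called lower in 10 of 10 cases for WT, for SCR and for KD, where 4.68%, 5.42% and 5.55% of all probe sets were called lower. The median change was -2.63 log2 in WT, -2.04 in SCR and -4.03 in KD EBs, while the median over all probe sets was -0.0067, 0.0033 and -0.0033. In the group means, the median gene kept 16.2% of its day 0 signal in WT EBs at day 2, 24.4% in SCR and 6.18% in KD EBs, signal being the value taken back from the log2 scale. In these bulk samples, fewer cells that express a gene and less RNA per cell cannot be told apart.

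For the nuclear receptors the 3 lines were separate at day 2. Esrrb was at 8.11, 7.78 and 7.96 log2 on the WT arrays, at 9.22, 8.81 and 9.10 on the SCR arrays and at 6.86, 6.24 and 6.66 on the KD arrays. SCR was highest and KD lowest, with no overlap. KD differed from SCR by -2.46 log2 (SE 0.215) and from WT by -1.36 (limma adjusted p = 2.15e-05). With the mean of the Esrrb probe sets, KD was at -0.89 and SCR at 0.88 against WT, and neither was called. Nr0b1 followed the same order, at 9.32, 9.09 and 9.20 in WT, 10.47, 10.28 and 10.35 in SCR and 8.04, 7.52 and 7.88 in KD EBs. Nr5a2 (LRH-1), which binds regulatory regions of Pou5f1 in ESCs, was at 7.17 ± 0.176 (SD, n = 3 arrays) in WT, 8.04 ± 0.023 in SCR and 6.12 ± 0.185 in KD EBs. With the mean of the Nr5a2 probe sets, KD was at -0.63 against WT and was not called.

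The Krüppel-like factors bind GC-rich elements and overlap in function in ESCs. Klf2 was at 8.47 ± 0.27 (SD, n = 3 arrays) in WT, 9.57 ± 0.305 in SCR and 7.31 ± 0.314 in KD EBs. Klf4 had the largest fitted fall of the 3 in each line and was at 7.42 ± 0.372, 7.03 ± 0.584 and 6.13 ± 0.41. Here the SCR arrays, at 7.43, 6.36 and 7.30, overlapped with the KD arrays, at 6.39, 5.66 and 6.35, and the difference of -0.90 log2 (95% interval -1.37 to -0.42, limma adjusted p = 0.00319) was under the 2-fold minimum. Klf5 was at 8.46 ± 0.142, 8.6 ± 0.184 and 7.56 ± 0.172, with KD 1.04 log2 below SCR in the fitted value (95% interval of the difference -1.32 to -0.76), which is close to the minimum. Without replicate 2 of the KD or replicate 1 of the SCR day 2 arrays the Klf5 difference was -0.94 and -0.96 and was not called. With the replicate number as a block, on the compared arrays only, it was -1.04 and was called (limma adjusted p = 0.00102). With the mean of the Klf5 probe sets it was -0.59 and was not called.

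Tfcp2l1, a CP2-family factor downstream of LIF and STAT3, fell from 10.54 ± 0.095 (SD, n = 3 arrays) to 5.58 ± 0.269 in KD EBs by day 2, against 7.15 ± 0.101 in WT and 7.87 ± 0.291 in SCR EBs. The T-box factor Tbx3 was at 5.30, 4.63 and 5.11 log2 on the KD arrays, at 7.86, 7.23 and 7.68 on the WT arrays and at 7.69, 6.90 and 7.40 on the SCR arrays. For Tbx3 and Klf4 the SCR and WT arrays overlapped, unlike for Esrrb, Klf2 and Nr0b1. Tcl1 was at 5.43, 5.43 and 5.52 in KD EBs and at 7.96 to 8.07 in WT and 8.18 to 8.33 in SCR EBs, which gave the largest difference between KD and SCR among the 10 genes, -2.82 log2 (SE 0.185). Prdm14 was at 3.96 ± 0.206 in KD EBs at day 2. That is under the lower quartile of its arrays, which was 4.23 to 4.51 over all arrays, so the size of its fall is not exact.

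At day 2, KD was below SCR for 9 of the 10 genes (3.6% of all probe sets differed in either direction) and below WT for 9 (0.666%). The exceptions were Klf4 against SCR and Klf5 against WT, at -0.90 log2 each. SCR was above WT for 3 genes, Esrrb, Klf2 and Nr0b1 (1.93% of all probe sets). With the mean of a gene's probe sets, Esrrb was called in neither comparison with WT. Nor was Nr5a2 called in KD against WT, or Klf5 in KD against SCR. Without replicate 3 of every group the 9 genes below WT became 6, with Esrrb (adjusted p = 0.0506), Klf4 (0.102) and Prdm14 (0.307) lost, and the 3 genes of SCR became 2, with Esrrb lost (0.0697). Several other calls lay close to the 2-fold minimum and were lost without 1 array. Same-numbered arrays deviated together across lines at this stage, so leaving out 1 array can in itself shift a difference between lines. Against WT, Klf2, Nr5a2 and Prdm14 in KD EBs were at -0.99, -0.95 and -0.98 log2 without a KD array of day 2 (replicate 2, 2 and 3), and Nr5a2 and Prdm14 were at -0.95 and -0.89 without replicate 1 of WT. Klf2 in SCR against WT EBs was at 0.95 without replicate 1 of SCR. The difference between lines in the change since day 0 was tested directly. Against SCR, 8 of the 10 genes fell more in KD cells (3.32% of all probe sets had a called difference), and 8 also without replicate 3 of every group. Against WT it was 8 as well (0.682%), but without replicate 3 only Tcl1 and Tfcp2l1 were called. The other 6 then had differences of -1.03 to -1.75 log2 with limma adjusted p from 0.168 to 0.718. Esrrb was also lost without replicate 2 of KD at day 2 (adjusted p = 0.0519), Klf2 without that array (-0.91) or replicate 1 of WT at day 2 (-0.94), and Prdm14 without replicate 1 or 3 of WT at day 2, replicate 3 of WT at day 0 or replicate 3 of KD at day 2 (adjusted p from 0.0507 to 0.086). Between SCR and WT it was called for Nr0b1 alone, at 1.08 log2 (1.84%), and Nr0b1 was not called without replicate 1 of the WT day 0 arrays (0.94), replicate 2 of the SCR day 0 arrays (0.96) or replicate 3 of every group (1.10, adjusted p = 0.381).

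The genes around the 10 factors give the stage of the cells at day 2. Of 11 measured other naive-state genes, 10 were lower than at day 0 in WT and in KD EBs and 3 in SCR EBs, with Fbxo15 at -2.68 log2, Jam2 at -2.25 and Manba at -1.94 in WT EBs. Of 8 core pluripotency genes, only Nanog was lower in each line, at -1.28 in WT, -1.98 in SCR and -1.34 in KD EBs. Of 8 measured genes of the formative and primed epiblast, 7 were higher in each line, and in SCR EBs Etv4 was lower, at -1.14. Fgf5, which marks the postimplantation epiblast, rose by 5.21 log2 in WT, 4.6 in SCR and 5.52 in KD EBs, and Pou3f1 by 4.58, 4.38 and 4.58. In WT EBs 5.67% of all probe sets were called higher and 4.68% lower. Between KD and SCR at day 2, 8 of the 11 other naive-state genes were lower, with Manba at -2.50, 0 of the 8 core genes differed, and 3 of the 8 epiblast genes were higher, Zic2 at 1.58, Sox3 at 1.22 and Fgf5 at 1.06, where 1.77% of all probe sets were higher and 1.83% lower.

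Genes of the signalling pathways were followed beside them. Of 10 genes of LIF and STAT3 signalling, 3 were lower in WT EBs at day 2 than at day 0, Socs3 at -2.66 log2, Stat3 at -1.41 and Pim3 at -1.05. Socs3 and the Pim kinases are targets of STAT3. In SCR EBs 2 were lower and in KD EBs 5, with 1 higher. Over all probe sets 4.83% were higher and 5.42% lower in SCR EBs, 5.66% and 5.55% in KD EBs, and in WT EBs the shares were those given above. Of 8 measured genes of the Wnt, GSK3 and TCF7L1 axis, Lef1 was higher in each line, at 2.06, 2.84 and 2.01, and Axin2 also in KD EBs, at 1.10. Of 9 genes of FGF and ERK feedback, 0 were higher and 2 lower in WT EBs. Between KD and SCR at day 2 Pim1 was at -1.36 and Pim3 at -1.05, 0 of the 8 Wnt genes differed, and Dusp4, a phosphatase of ERK, was at -1.74.

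**Figure D2:**
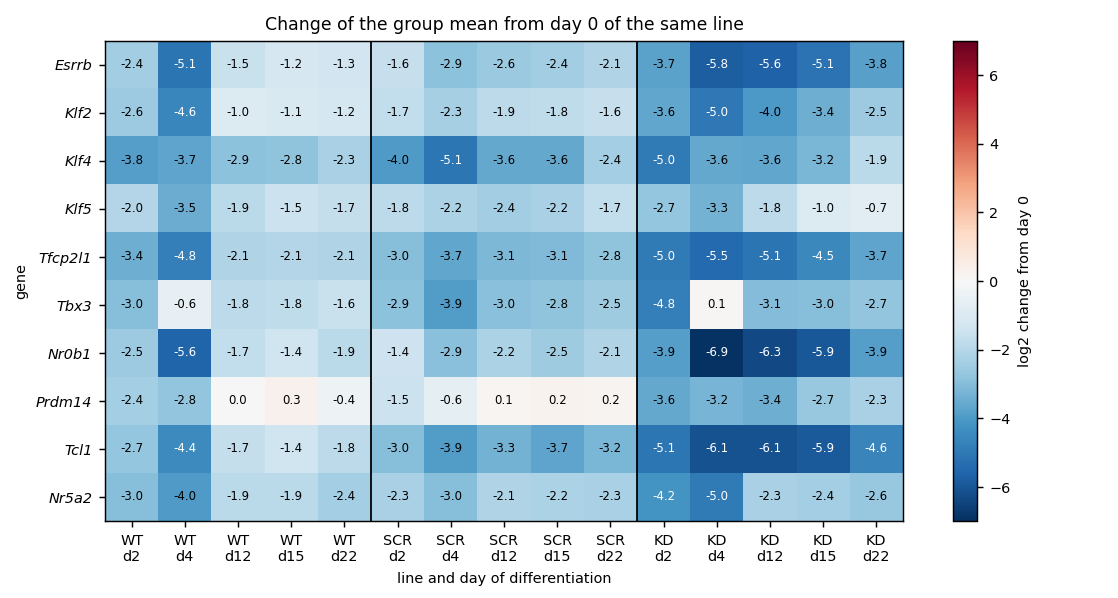
Change of each gene's group mean from day 0 of the same line, in log2 units, by gene (rows) and by line and day (columns), with blue for lower and red for higher values and the change printed in each cell. The deepest values are those of Nr0b1 and of Tcl1 in KD EBs at day 4 and day 12. Tbx3 at day 4 is near 0 in WT and KD EBs but not in SCR EBs.

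By day 4 the group means of WT EBs lay nearer to KD than to SCR EBs for every gene but Tcl1. The median difference from WT was -0.61 log2 in KD and 1.29 in SCR EBs. The median gene kept 5.56% of its day 0 signal in WT, 12.9% in SCR and 3.19% in KD EBs. Against day 0, 9 of the 10 genes were lower in WT EBs (8.19% of all probe sets), 9 in SCR EBs (5.1%) and 9 in KD EBs (7.43%). The exception was Tbx3 in WT and in KD EBs, at -0.57 and 0.08 log2, and Prdm14 in SCR EBs, at -0.63.

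Esrrb was at 5.70, 5.0 and 5.06 log2 on the WT arrays of day 4, at 7.60, 7.84 and 7.83 on the SCR arrays and at 4.82, 4.07 and 4.76 on the KD arrays. Nr0b1 was at 6.26, 6.0 and 6.17 in WT, at 8.90, 8.82 and 8.98 in SCR and at 5.25, 4.22 and 4.86 in KD EBs. For both nuclear receptors the SCR arrays lay far above the rest and the KD arrays below those of WT. Nr0b1 kept 0.871% of its day 0 signal in KD EBs, 2.07% in WT and 13.2% in SCR EBs. Its difference between KD and SCR was -4.12 log2 (SE 0.213, limma adjusted p = 8.69e-20), the largest of the 10 genes in any comparison of these lines on days 0 to 4. The KD values of 4.07 for Esrrb and 4.22 for Nr0b1 were under the lower quartile of the arrays (4.23 to 4.51), so these sizes are not exact. Nr5a2 was at 6.17 ± 0.129 (SD, n = 3 arrays) in WT, 7.31 ± 0.112 in SCR and 5.36 ± 0.097 in KD EBs.

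For Klf2 and Klf5 the SCR arrays again lay above the rest while those of KD and WT overlapped, and Klf4 differed. Klf2 was at 6.47 ± 0.272 (SD, n = 3 arrays) in WT, 8.96 ± 0.146 in SCR and 5.94 ± 0.445 in KD EBs, and Klf5 at 7.05 ± 0.012, 8.19 ± 0.045 and 6.95 ± 0.122. Klf4 was at 7.41, 7.77 and 7.54 on the WT arrays, at 5.39, 6.34 and 6.01 on the SCR arrays and at 7.52, 7.42 and 7.54 on the KD arrays. WT and KD overlapped for Klf4 and both lay above every SCR array, with KD 1.58 log2 (SE 0.235, limma adjusted p = 3.81e-07) above SCR. Its other probe set, 1417395_at, gave 1.12.

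Tbx3 went the same way as Klf4 and by more. At day 4 it was at 9.90, 10.05 and 10.04 log2 on the WT arrays and at 9.75, 9.95 and 9.91 on the KD arrays, but at 5.89, 6.5 and 6.51 on the SCR arrays. In WT and KD EBs it had thus come back to near its day 0 level after the fall of day 2, and in SCR EBs it had not. From day 2 to day 4 it rose by 2.41 log2 (SE 0.188) in WT and by 4.86 in KD EBs and fell by 1.03 in SCR EBs, a contrast added after these values had been seen. Klf4 rose over the same days by 1.36 in KD EBs and fell by 1.12 in SCR EBs, with 0.16 in WT EBs (95% interval -0.32 to 0.63). Both falls in SCR EBs were close to the minimum. Without replicate 1 of the SCR day 4 arrays they were -0.83 for Tbx3 and -0.86 for Klf4, without replicate 1 of day 2 they were -0.85 and -0.92, without replicate 3 of day 2 they were -0.99 and -0.98, and none of these was called. Of the 10 genes, 1 was higher and 7 lower in WT EBs at day 4 than at day 2 (12.7% of all probe sets changed in either direction), 2 higher and 3 lower in KD EBs (12.5%), and 0 higher and 4 lower in SCR EBs (5.76%), the last being 2 in all without replicate 3 of the SCR day 2 arrays. The difference of Tbx3 between KD and SCR at day 4 was 3.57 log2 (95% interval 3.19 to 3.95), and its other 2 probe sets gave 4.10 and 2.72.

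Of the other 3 genes at day 4, Tfcp2l1 was at 5.77 ± 0.139 (SD, n = 3 arrays) in WT, 7.20 ± 0.09 in SCR and 5.08 ± 0.258 in KD EBs. Tcl1 was at 6.70, 5.95 and 6.21 log2 on the WT arrays, at 7.43, 7.19 and 7.32 on the SCR arrays and at 4.89, 4.28 and 4.22 on the KD arrays. Tcl1 is the gene for which KD EBs were furthest below WT EBs at this day. Prdm14 was at 4.94, 4.2 and 4.85 in WT, 6.18, 6.70 and 6.58 in SCR and 4.45, 4.49 and 3.99 in KD EBs, so that WT and KD overlapped. KD arrays of Tcl1 and Prdm14 lay near the lower quartile of the arrays (4.23 to 4.51), so the sizes of their differences are not exact.

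Counted over the 10 genes at day 4, KD was below SCR for 8 and above it for 2, Klf4 and Tbx3 (9.73% of all probe sets differed), with a median of -2.15 log2 against 0.0033 over all probe sets. SCR was above WT for 8 and below it for the same 2 (9.04%), of which Tcl1, at 1.03 log2, was not called without replicate 2 or 3 of WT (0.86 and 0.99) or replicate 1 of SCR (0.97). KD was below WT for 2, Nr0b1 at -1.37 log2 and Tcl1 at -1.82 (0.242%). These comparisons share their arrays, so the first 2 counts are not independent of each other. With the mean of a gene's probe sets, Klf5 was at -0.93 in KD against SCR EBs and 0.93 in SCR against WT EBs. Nr5a2 was at 0.84 in SCR against WT EBs, and none of these was called. With the replicate number as a block, on the compared arrays only, the count of KD against WT was 1: Tcl1 stayed and Nr0b1 had the same -1.37 with a limma adjusted p of 0.0775. Without replicate 3 it was also 1. In the change since day 0, KD differed from SCR for 10 of the 10 genes, 8 lower and 2 higher (11.4% of all probe sets). Of these Klf5, at -1.09 log2, was not called without replicate 2 of SCR at day 0 (-0.95). Nor was Klf5 called with array weights (-0.93) or with the mean of its probe sets (-0.83). SCR differed from WT for 6 higher and 2 lower (10.3%), with Klf4 lost without replicate 3 of every group (-1.47, adjusted p = 0.0538). KD differed from WT for 3 lower (1.19%), Nr0b1, Tcl1 and Nr5a2, and for 0 without replicate 3, where limma adjusted p was 0.322, 0.0929 and 0.247. Nr5a2, at -1.0 log2, was not called without replicate 2 or 3 of WT at day 0 (-0.91 and -0.99), replicate 1 of WT at day 4 (-0.93), replicate 1 of KD at day 0 (-0.87) or replicate 3 of KD at day 4 (-0.95).

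Genes of other stages and lineages also differed between the lines at day 4. Of 8 measured epiblast genes, 5 were lower in KD than in SCR EBs, with Pou3f1 at -4.43 log2, Sox3 at -2.71 and Fgf5 at -2.12, and of 8 core genes 5 were lower, with Pou5f1 at -3.39, Nanog at -2.86 and Sox2 at -2.65. Of 11 other naive-state genes 9 were lower. Genes of the lineage lists that were higher in KD included the cardiac factor Tbx20 at 6.39, the endothelial receptor Kdr at 4.54, the gut factor Cdx2 at 4.02, Foxa1 at 3.20, Foxa2 at 2.89 and Plac1 at 5.74. By list, 4 of 9 liver and gut genes were higher and 0 lower, 4 of 9 cardiac genes higher and 1 lower, 3 of 7 trophoblast genes higher and 1 lower, and 1 of 9 endothelial genes higher and 1 lower, where 4.92% of all probe sets were higher and 4.82% lower. Between SCR and WT, 5 of 8 epiblast genes were higher in SCR EBs, and 4 of 9 liver and gut genes and 3 of 9 cardiac genes lower, where 4.54% of all probe sets were higher and 4.5% lower. The mean of the liver and gut list lay between 5.62 and 6.21 on the WT arrays, between 5.89 and 5.93 on the KD arrays and between 4.41 and 4.5 on the SCR arrays. The part of such cells in the levels of Tbx3 and Klf4 was not tested.

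**Figure D3:**
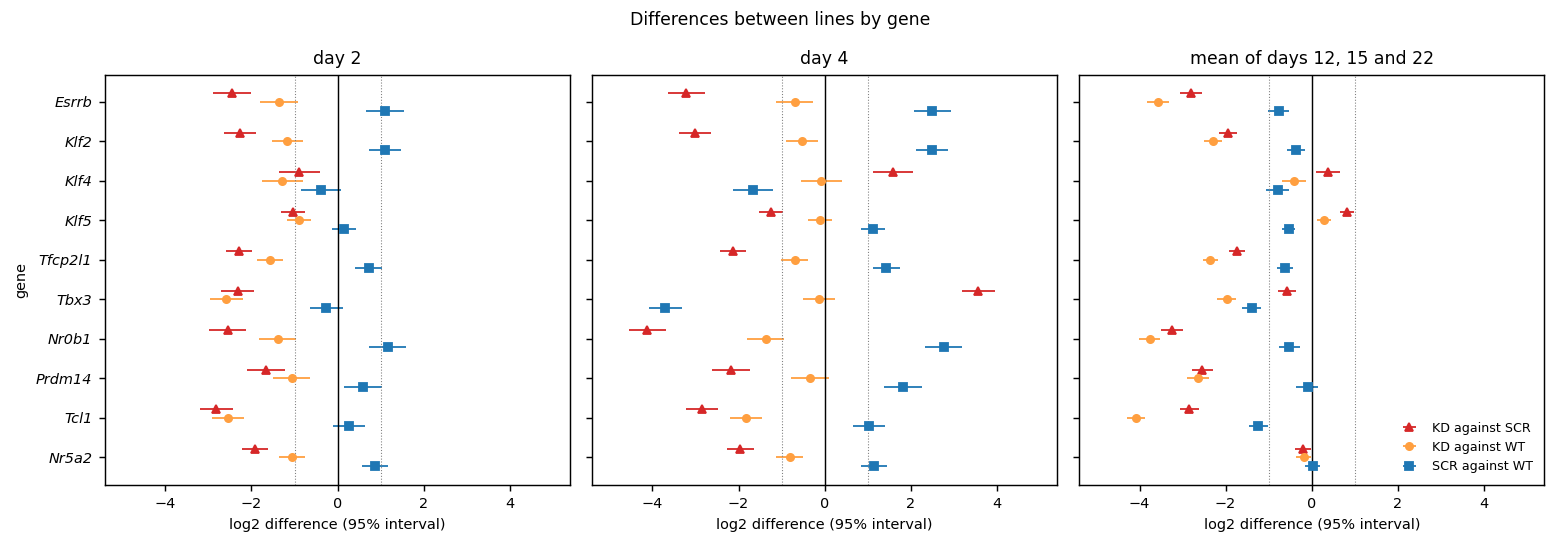
Log2 differences between lines (x axis) by gene (y axis) at day 2, at day 4 and over the mean of days 12, 15 and 22, as fitted values with 95% intervals, for KD against SCR (red triangles), KD against WT (orange circles) and SCR against WT (blue squares). Dotted lines mark a 2-fold difference. At day 4 Tbx3 and Klf4 lie on the opposite side from the other 8 genes in the comparisons with SCR. Differences of KD from WT are smaller there than those of SCR from WT, except for Tcl1. In late EBs Klf4, Klf5 and Nr5a2 lie within the dotted lines in each comparison.

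In WT EBs most of the 10 genes were higher again on days 12 to 22. Over the mean of days 12, 15 and 22, called late EBs here, 9 of them were above day 4 in WT (6.58% of all probe sets), with Tbx3 lower at -1.16 log2. Nr0b1 rose by 3.92 log2 (SE 0.174), Esrrb by 3.78, Klf2 by 3.46 and Klf4 by 1.02. Klf4 was at the threshold and was not called without replicate 1 of the WT day 4 arrays (0.94), of the day 12 arrays (0.99) or of the day 22 arrays (0.99). In SCR EBs 2 genes were above day 4 (6.48%), Klf4 at 1.89 and Tbx3 at 1.14. Without replicate 1 of the SCR day 4 arrays Tbx3 was at 0.93 and the count was 1. In KD EBs 5 genes were above day 4 (11.3%), Nr5a2 at 2.53, Klf5 at 2.15, Klf2 at 1.69, Nr0b1 at 1.52 and Tfcp2l1 at 1.03, and Tbx3 was lower by a fitted -3.01. Without replicate 3 of the KD day 4 arrays Tfcp2l1 was at 0.88, and without replicate 2 of the day 15 arrays at 0.98, and it was not called.

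Late EBs still lay below ESCs. Against day 0, 9 genes were lower in WT (4.16% of all probe sets), 9 in SCR (6.56%) and 10 in KD EBs (13.5%). The exception in WT and SCR EBs was Prdm14, which was at its day 0 level, with -0.01 and 0.19 log2. On the WT arrays Prdm14 was at 7.80, 7.03 and 7.55 at day 12 and at 7.20, 6.88 and 7.03 at day 22, against 7.56, 7.35 and 7.34 at day 0. On the KD arrays it was at 3.94, 4.46 and 3.98 at day 12 and at 5.26, 5.42 and 5.17 at day 22. The KD values of day 12 lay near the lower quartile of the arrays (4.23 to 4.51), so the size of that fall is not exact. The median gene kept 30% of its day 0 signal in WT EBs at day 22, 22.4% in SCR and 15.4% in KD EBs.

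In late KD EBs 6 of the 10 genes were below SCR and the other 4 were not called. Over all probe sets 11.3% differed in either direction, and the median of the 10 genes was -1.84 log2 against -0.058. The 6 were Nr0b1 at -3.25 log2 (SE 0.123, limma adjusted p = 4.59e-25), Tcl1 at -2.84, Esrrb at -2.81, Prdm14 at -2.54, Klf2 at -1.94 and Tfcp2l1 at -1.74. They were also lower than in WT, together with Tbx3 at -1.98 (14.3%). Of the other 4, Klf5 was at 0.81 (95% interval 0.65 to 0.98), Klf4 at 0.38 (0.10 to 0.65), Nr5a2 at -0.21 (-0.38 to -0.03) and Tbx3 at -0.58 (-0.79 to -0.36). All 4 passed on adjusted p alone, as did 21751 of all 30939 probe sets. With the probe sets used, the intervals lay under 2-fold, but a second probe set of Klf5 passed the threshold, as given below.

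Esrrb was at 4.30, 5.16 and 4.59 log2 on the KD arrays of day 12, against 7.73, 8.23 and 8.10 on the SCR arrays and 9.0, 8.64 and 8.91 on the WT arrays. By day 22 it was at 6.49, 6.54 and 6.51 in KD EBs. Nr0b1 was at 4.90, 5.88 and 5.28 at day 12 and at 7.69, 7.99 and 7.71 at day 22 in KD EBs, against 9.33 to 10.09 in SCR EBs at day 22. For both genes the KD arrays of day 22 lay above those of day 12, a step that was not tested, and they were still below SCR, by a fitted -2.03 and -1.93. Tcl1 had 1.51% of its day 0 signal in KD EBs at day 12 and 4.10% at day 22, the lowest of the 10 genes on that day. Its KD arrays of day 12, at 4.06 to 4.84, lay near the lower quartile of the arrays (4.23 to 4.51), so the 1.51% is not exact. Mageb16 in KD EBs was at 4.49 ± 0.355 (SD, n = 3 arrays) at day 12 and 7.12 ± 0.28 at day 22.

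Klf5 and Nr5a2 took another course. Klf5 was at 8.68, 8.32 and 8.36 log2 on the KD arrays of day 12, at 9.41, 9.14 and 9.33 at day 15 and at 9.51, 9.47 and 9.65 at day 22. The SCR arrays lay between 7.91 and 8.10 at day 12, between 8.13 and 8.22 at day 15 and between 8.19 and 9.17 at day 22, below every KD array of the day. At day 15 the difference of 1.12 log2 was called, but with the mean of the Klf5 probe sets it was 0.79 and was not called. The WT arrays lay between 8.48 and 8.76 at day 12, where they overlapped with KD and lay above SCR. At day 15 they lay between 8.90 and 9.05, below KD and above SCR. A second probe set of Klf5, 1451739_at, gave 1.10 over the late days and passed the threshold, where the one used gave 0.81. Nr5a2 was at 8.49, 7.54 and 8.11 in KD, 8.05, 8.31 and 8.19 in SCR and 8.45, 8.0 and 8.27 in WT EBs at day 12. The 3 lines overlapped there, although Nr5a2 had been lowest in KD EBs at day 4. Klf4 was at 9.19, 9.42 and 8.94 in KD, 8.96, 8.33 and 8.50 in SCR and 9.13, 8.80 and 9.01 in WT EBs at day 22, and the lines overlapped.

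Tbx3 differed from both of these courses, with the order WT above SCR above KD. It was at 8.93, 8.45 and 8.83 log2 in WT, 7.08, 7.36 and 7.29 in SCR and 6.75, 6.80 and 6.65 in KD EBs at day 12, with no overlap of the lines. SCR was below WT in late EBs for Tbx3, at -1.40 (SE 0.108), and for Tcl1, at -1.24, and for no other of the 10 genes (4.72% of all probe sets). The median of the 10 genes was -0.58 there, against -0.016 over all probe sets. On single days SCR was below WT for 2 genes at day 12, 4 at day 15 and 1 at day 22. Of all probe sets 2.17%, 2.41% and 2.11% were lower on these days.

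Late KD EBs had more signal than SCR EBs for many genes of differentiated epithelia, endothelium and heart. For liver and gut, 8 of 9 measured genes were above SCR, with Alb at 7.76 log2, Apoa1 at 6.02 and Ttr at 5.36 (median of the list 2.86, and -0.058 over all probe sets). Of 10 genes of simple epithelium 5 were higher and 1 lower, with Krt19 at 3.75 and Krt7 at 2.75. Of 9 endothelial genes 6 were higher, led by Cdh5 at 4.03, and of 9 cardiac genes 6, led by Myl7 at 4.71. Over all probe sets 7.33% were higher and 3.93% lower. At day 22 the mean of the liver and gut list lay between 9.81 and 10.07 on the KD arrays, between 5.93 and 6.75 on the SCR arrays and between 8.10 and 8.73 on the WT arrays, with 0 of its 9 genes under the lower quartile of the arrays in any line. Against WT, 5 of the 9 were higher, and of the epithelial genes 1 was higher and 1 lower. Over all probe sets 9.11% were higher and 5.15% lower than in late WT EBs. At day 22 the mean of the epithelial list lay between 9.71 and 9.84 on the KD arrays and between 9.81 and 9.90 on the WT arrays. On the SCR arrays it lay between 8.47 and 8.82. The epithelial list also differed before differentiation, with 6 of its 10 genes higher in KD than in SCR cells at day 0. There 0.478% of all probe sets were higher and 0.449% lower. The part of such cells in the levels of Klf4, Klf5 and Nr5a2 was not tested.

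Many genes of pluripotent and germ cells were lower in the same EBs, where 3.93% of all probe sets were lower and 7.33% higher than in SCR EBs. Against SCR, 7 of 8 core genes were lower, with Dppa4 at -2.71 log2, Pou5f1 at -2.63 and Nanog at -2.46. So were 9 of 11 other naive-state genes, with Fgf4 at -3.35, Dnmt3l at -2.87 and Fbxo15 at -2.85, and 6 of 8 epiblast genes, with Otx2 at -3.11. Of 7 measured germ cell genes 4 were lower, Ddx4 at -2.89, Dppa3, which is also in the naive list, at -2.02, Dazl at -1.68 and Dnd1 at -1.12. In late WT EBs 4 of these 7 were above day 4, with Dazl at 3.45, Stra8 at 3.05 and Ddx4 at 2.28, and 10 of the 11 other naive-state genes were, where 6.58% of all probe sets were higher. Of the LIF and STAT3 genes Pim1 was at -1.44, Pim3 at -1.26 and Stat3 at 1.24 in late KD against SCR EBs, and of the Wnt genes Lef1 alone was called, at -1.33. Of the FGF and ERK feedback genes 2 were higher, with Egr1 at 1.37, and 4 lower, with Etv5 at -2.16.

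**Figure D4:**
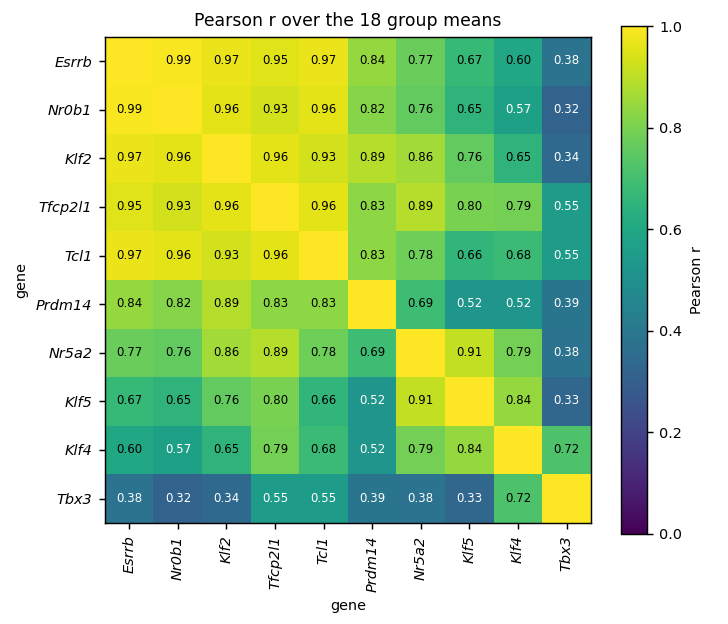
Pearson correlation of each pair of the 10 genes over the 18 group means (color, with r printed in each cell). Esrrb, Nr0b1, Klf2, Tfcp2l1 and Tcl1 form a block at 0.93 to 0.99, Klf5 pairs with Nr5a2 at 0.91, and Tbx3 has the lowest values, with 0.72 to Klf4 as its highest.

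Over the 18 group means, Esrrb and Nr0b1 had the highest correlation of any pair, at 0.99, and Tbx3 and Nr0b1 the lowest, at 0.32. These values are a description, since the groups share lines and days and all genes were high at day 0. The median correlation with the other 9 genes was 0.89 for Klf2 and Tfcp2l1, 0.84 for Esrrb and 0.38 for Tbx3. Klf5 was most like Nr5a2 (0.91), and Klf4 most like Klf5 (0.84). Among 6997 other genes with a group mean of at least 8 log2, the one most like Nr0b1 was Zfp42 (Rex1), a classical ESC marker, at 0.983. The one most like Esrrb was Triml1 at 0.986, for Klf2 it was Rbpj at 0.98, for Tfcp2l1 Hspb1 at 0.974 and for Tcl1 1700029P11Rik at 0.978. For Nr5a2 it was Mllt6 at 0.96, for Klf5 Nedd4l at 0.943, for Prdm14 Lrrc34 at 0.939, for Klf4 Pdgfa at 0.932 and for Tbx3 Tle3 at 0.916. The standardised mean of the 10 genes was most like Ubxn2a (0.973), Hspb1, Cobl and Pdhb (0.967 each) and Jam2 (0.964).

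Of the 20 probe sets of these genes, 10 were not used above. The other probe sets of Esrrb, 1422986_at and 1441921_x_at, were lower in KD than in SCR EBs at day 4 by less than the one used, at -1.04 and -1.31 log2 against -3.21, and all 3 passed the threshold. Over all arrays 1441921_x_at was nearly as bright as the one used, at 7.79 against 7.82 log2. The size of the Esrrb differences given above thus depends on the probe set. Nr5a2 was lower with 1449706_s_at, at -1.09, and with 1456521_at, at -2.00, against -1.96. The probe sets 1430255_at of Klf5 and 1449707_at of Nr5a2 had means of 3.05 and 3.24 log2 over all arrays and were not called in that comparison, at -0.07 and 0.07. The direction of each called difference at day 4 was the same in every probe set that was called.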

How the data were processed

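Log2 expression values of 54 Affymetrix Mouse 430 2.0 arrays were used as deposited. Per the labels, the authors made them by RMA with Affymetrix Expression Console and Partek 6.6, while the methods of the paper give Bioconductor and a different RNA kit. RMA includes a quantile normalization over arrays, so a global change in RNA per cell is not seen. The table holds 30939 probe sets, with values from 1.65 to 14.03 and array medians from 5.94 to 6.26. The platform annotation gives 25596 probe sets 1 symbol, 685 several and 4658 none, and only the first kind was used for a gene. Groups and replicate numbers came from the sample titles.

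In R 4.3.3, limma 3.58.1 fitted 1 mean per group to all arrays with moderated variances (eBayes), with the Benjamini-Hochberg adjustment made within each contrast over the whole table. Calls needed an adjusted p under 0.05 and a change of 2-fold or more. Errors of differences are moderated standard errors, and the number of arrays limits the precision. The fit was tested on simulated data.

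The 10 genes and the 12 lists around them (115 genes, 105 measured) were chosen with earlier results of these data known. Named are the 10 genes, Mageb16, up to 3 genes of a list with the largest called change, the non-member gene most like each of the 10, and the 5 most like their mean. The contrast of day 4 with day 2, the percent of day 0 signal and the replicate block on the compared arrays were added after values had been seen. For motifs, the 250 bases before a start were searched, while 50 bases after it, which had been planned, were left out.

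Same-numbered arrays of different lines deviated together on days 0 to 4, where in 9 of 9 pairs of groups all correlations of their deviations were over 0.1 (0.11 to 0.61). On days 12 to 22 this held in 2 of 9 pairs of groups (-0.52 to 0.57). Between days of a line it held in 0 of 6, 0 of 9 and 2 of 9 pairs. The numbers were therefore taken to pair arrays only between lines on days 0 to 4. There, leaving out 1 array breaks a pair, which can in itself shift a difference between lines. The alternatives covered normalization, dim probe sets, the probe set of a gene, the arrays in the fit, the variance model, array weights, the call rule, the replicate block and each array left out.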

Additional observations from a re-analysis of the deposited data

Results flagged for a closer look

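Each value here is a difference between 2 lines in the change since day 0, in log2 units, that passed the limma threshold of an adjusted p under 0.05 and a 2-fold size. The comparisons share arrays, and no cause was tested.

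From day 0 to day 2, genes fell more in KD than in SCR cells: Nr0b1 by -2.42, Esrrb by -2.14, Prdm14 by -2.11, Tcl1 by -2.1, Tfcp2l1 by -1.98, Nr5a2 by -1.94, Tbx3 by -1.91 and Klf2 by -1.9. They also fell more in KD than in WT cells, with Tcl1 at -2.36, Tbx3 at -1.8, Tfcp2l1 at -1.55, Nr0b1 at -1.34, Esrrb at -1.3, Nr5a2 at -1.24, Prdm14 at -1.21 and Klf2 at -1.09. Of these 8 against WT, only Tcl1 and Tfcp2l1 were called without replicate 3 of every group, and Klf2 was not called with the compared arrays only (adjusted p = 0.0669). With the mean of a gene's probe sets, Esrrb was at -0.82 and Nr5a2 at -0.77 against WT, and neither was called. Nr0b1 fell less in SCR than in WT cells, at 1.08, and was not called without replicate 3 (adjusted p = 0.381).

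From day 0 to day 4, the difference between KD and SCR cells was -3.99 for Nr0b1, -2.89 for Esrrb, -2.65 for Klf2, -2.61 for Prdm14, -2.14 for Tcl1, -1.98 for Nr5a2, -1.82 for Tfcp2l1 and -1.09 for Klf5. For Tbx3 it was 3.98 and for Klf4 1.48, so that these 2 fell more in SCR cells. Between SCR and WT cells it was 2.67 for Nr0b1, 2.25 for Esrrb, 2.2 for Klf2, 2.12 for Prdm14, 1.22 for Klf5 and 1.14 for Tfcp2l1, and -3.32 for Tbx3 and -1.41 for Klf4. Between KD and WT cells it was -1.64 for Tcl1, -1.32 for Nr0b1 and -1 for Nr5a2, the last at the 2-fold limit, and none of the 3 was called without replicate 3.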

How the results depend on the processing

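Of 735 recomputed counts of genes called, 708 stayed within 1.5 times the value reported. Of 7220 recomputed differences of single genes that had been called, 7095 stayed called in the same direction, 125 fell under the threshold and none reversed. Another 71 passed only under an alternative. In SCR EBs the genes above day 4 in late EBs numbered 1 with the mean of a gene's probe sets, 1 with array weights, 9 with no minimum fold and 1 to 2 when arrays were left out, against 2. With no minimum fold, late KD EBs had 9 genes above day 4 in place of 5. By that rule 17556 of all 30939 probe sets differed in either direction between day 4 and late SCR EBs, and 22053 in KD EBs. Differences between lines with no minimum fold numbered 1 for KD and SCR at day 0 and 1 for KD and WT (0 reported). They numbered 10 for KD and SCR in late EBs (6) and 4 for KD and WT at day 4 (2). For SCR and WT they numbered 5 at day 2 (3) and 8 in late EBs (2). By the same rule and in the same order, 4408, 4426, 21751, 447, 5654 and 15842 of all 30939 probe sets differed in either direction. The count for KD and WT at day 4 was 1 with the compared arrays only, 1 with the replicate block on those arrays and 1 to 2 when arrays were left out. In the change since day 0, KD against WT had 2 to 9 genes at day 2 (8) and 0 to 3 at day 4 (3) when arrays were left out, with the lowest of both without replicate 3. SCR against WT at day 2 had 0 to 2 (1), and 3 with no minimum fold, where 2913 of all 30939 probe sets passed. From day 2 to day 4, SCR EBs had 1 gene with the mean of a gene's probe sets, 10 with no minimum fold and 2 to 5 when arrays were left out (4). KD EBs had 9 with no minimum fold (5). Of all 30939 probe sets, 12625 changed by that rule in SCR EBs and 16847 in KD EBs. The replicate block over all arrays changed 1 of the 33 counts, KD against WT in the change to day 2, from 8 to 9 with Klf4 added, and 26 of 27 arrays of days 0 to 4 correlated best with their own number in another line. The array weights ran from 8.64e-15 (SCR day 22, replicate 3) to 45.2 (WT day 0, replicate 3), so that fit rests on few arrays. Counts over all probe sets rose by 2.59 to 16.6 times with no minimum fold. They were up to 2.19 times smaller over the brightest 60%, where fewer probe sets were tested, and all 10 genes are among these. Group levels moved by more than 1 SD in 10 of 180 cases after quantile normalization and in 27 after median centring.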
